A study of Rattus norvegicus with 24 samples.

Results

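Lungs of rats given silica particles were compared with lungs of rats given saline at day 14, in 12 of the 24 RNA-seq libraries of the series. The 6 silica and 6 saline libraries were taken by their labels. All animals were male Wistar rats, 5 to 6 weeks old and 170 to 190 g in weight. Each received an instillation into the trachea, either of silica particles at 200 mg/mL or of normal saline. The labels give neither the instilled volume nor the hour at which lungs were taken, and the rats were kept under 12 h of light and 12 h of dark. The other 12 libraries hold the same treatments at day 28, in libraries of their own, and are used below only where stated. RNA of whole lung was selected by its poly-A tail, so that a level is an average over all lung cells, in which fewer cells of a type and less RNA per cell cannot be told apart. Levels are in FPKM, a count of fragments divided by gene length and by library size. Changes are silica minus saline on the log2(FPKM + 1) scale with their standard error (SE), a scale that understates the change of low genes.

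Inhaled silica is taken up by alveolar macrophages, damages their lysosomes and activates the NLRP3 inflammasome, which releases interleukin 1. The scarring that follows is known for collagen laid down by fibroblasts and myofibroblasts. Lung tissue also makes surfactant lipid in type 2 alveolar cells, for which the SREBP factors drive fatty acid and sterol synthesis while PPAR factors drive fatty acid breakdown. A circadian clock runs in most lung cells.

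The libraries had the markers of lung. Sftpc, the surfactant protein of type 2 cells, had a median of 11090 FPKM in saline and 13446 in silica, and Ager, a marker of type 1 cells, had 1205 and 1378. Recovered depth was 65.5 to 84.6 M reads in saline and 59.6 to 74.9 M in silica (difference of means -8.03 M, two-sided exact permutation p = 0.0693, n = 6 a group). Mitochondrial genes took 2.15% to 3.92% of reads in saline and 2.00% to 2.62% in silica (difference -0.317 percentage points, exact permutation p = 0.353, and -0.0464 without saline replicate 5). By FPKM in place of reads, their share was lower in silica (-0.938 percentage points, exact permutation p = 0.00433). The first principal component, with 23.6% of the variance, separated the groups without overlap (exact permutation p = 0.00216, the smallest this design can give). Silica replicate 4 stood apart, with the highest score on that component (56.4), the lowest mean correlation with its own group (0.948) and the highest summed level of ribosomal protein genes. Saline replicate 5 had the highest mitochondrial share and a summed level of 9 cardiac muscle genes of 1016 FPKM, against 40.4 to 293 in the other saline and 36.0 to 147 in the silica libraries. RF00002, an ID named for a ribosomal RNA family of Rfam, was at 42.6 to 251 FPKM in saline and 134 to 1759 in silica. Silica replicate 4 was the lowest of the silica libraries. RF00002 was among the genes called higher (3.02 ± 0.60, limma adjusted p = 0.0127). Some genes were listed unevenly within a group: Calm2, a calmodulin gene, was at 185 to 223 FPKM in saline replicates 1, 3 and 5 and at 5.72 to 10.4 in replicates 2, 4 and 6. Of 7632 tested genes with a mean of at least 10 FPKM, 122 in saline and 154 in silica had a highest library at least 10 times the lowest, and 2 and 6 of these were called higher and none lower. The part of these differences in the results below was not tested.

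With silica, some transcripts of clock output, of fatty acid breakdown and of lineage and chromatin regulators were higher, and some of fatty acid desaturation, cell division and matrix were lower. Of 18809 genes tested, 616 were higher with silica (3.28%) and 467 were lower (2.48%) at a Benjamini-Hochberg adjusted p under 0.05 in limma, together 1083 (5.76%). The rises were the larger changes: 98 of the higher and 21 of the lower genes moved by at least 1 on the log2 scale. The 2 groups did not overlap, with every silica library above every saline library, in 566 genes (3.01%), and in 449 (2.39%) the order was the reverse, together 1015 (5.4%). Of the calls, 131 higher and 74 lower had no gene symbol or only a provisional one. Calls that survived the removal of any single library numbered 340 higher and 151 lower. Without silica replicate 4 the counts were 613 and 460, which held 524 of the 616 higher and 372 of the 467 lower calls. Without saline replicate 5 the counts were 610 and 400. The higher count moved by over 1.5 times without saline replicate 4 (368) and without silica replicate 1 (405). The lower count did so without saline replicates 1 (254), 2 (276), 3 (239), 4 (174) and 6 (231), and without silica replicates 1 (217), 5 (247) and 6 (267). The labels number the libraries as biological replicates and do not name animals or litters.

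**Figure D1:**
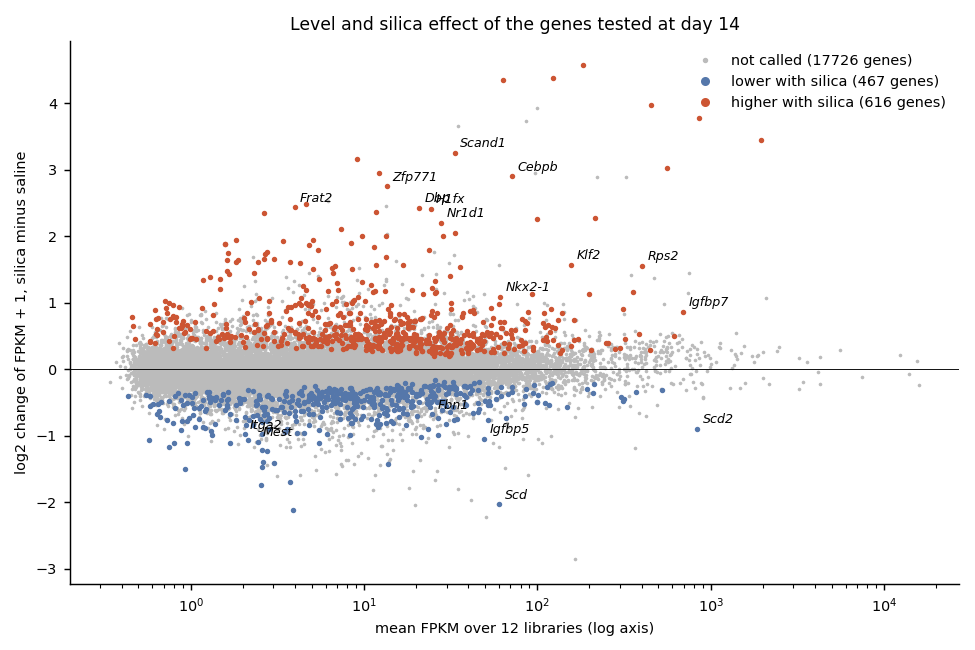
Mean level over the 12 day 14 libraries (FPKM, log axis) against the silica effect (log2 change of FPKM + 1, silica minus saline) for the 18809 tested genes, with the 616 higher calls in red and the 467 lower calls in blue. The rises reach further from 0 than the falls, and Scd, at -2.03, is among the lowest called genes.

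Of the circadian clock genes, Nr1d1, Nr1d2, Dbp and Per3 rose and Cry1 fell. The core of the clock is a loop in which BMAL1 (Arntl) and CLOCK switch on Per and Cry genes, whose proteins then repress them, while REV-ERB proteins (Nr1d1 and Nr1d2) repress Arntl and the factor DBP carries the rhythm to other genes. Nr1d1 was at 6.46, 9.23 and 11.7 FPKM (lowest, median and highest of 6) in saline and at 32.9, 41.2 and 83.7 in silica. The groups lay far apart, and silica replicate 2 was the highest of all. Its change was 2.20 ± 0.22 (SE; limma adjusted p = 0.000175). Dbp was at 3.74, 4.82 and 7.08 in saline and at 16.1, 26.8 and 92.3 in silica, a change of 2.42 ± 0.33 (adjusted p = 0.00129). Again no library overlapped and silica replicate 2 led. Nr1d2 went from a median of 3.63 (2.86 to 5.12) to one of 12.4 (7.88 to 22.5), and Per3 from 5.66 (3.78 to 6.58) to 11.8 (9.52 to 22.1), with changes of 1.51 ± 0.22 and 1.08 ± 0.18. Cry1, a repressor of the loop, was at 9.62, 10.9 and 12.9 in saline and at 4.70, 5.16 and 7.90 in silica. It was thus lower in every silica library (-0.81 ± 0.13, adjusted p = 0.0031). Of 18 clock genes tested, 4 were called higher and 1 lower, beside 3.28% and 2.48% of all genes. The list median was 0.05 beside -0.00415 over all genes. Arntl (-0.46, limma adjusted p = 0.0915), Tef (1.16, adjusted p = 0.0529) and Per1 (-0.88, adjusted p = 0.106) did not pass. All 5 calls held without any single library.

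The 250 bases before the annotated start were read from RefSeq on GRCr8 for called clock genes and for the called lipid genes described below. Shown are the windows with 2 CCAAT boxes and that of Nr1d2, which had the most GC boxes, so that the letters behind the counts can be seen. Of the 12 called clock, fatty acid and sterol genes, 11 had a promoter in that table. They were searched on both strands for the E-box CACGTG, the D-box TTATGNAA, the REV-ERB/ROR element, the sterol element TCACNCCAC, the CCAAT box CCAAT and the GC box GGGCGG, in which N is any base. Each motif was counted on its own. Capitals mark CCAAT boxes, which read ATTGG on the other strand, and GC boxes.
Dbp, chr1:105312006-105312255, plus strand: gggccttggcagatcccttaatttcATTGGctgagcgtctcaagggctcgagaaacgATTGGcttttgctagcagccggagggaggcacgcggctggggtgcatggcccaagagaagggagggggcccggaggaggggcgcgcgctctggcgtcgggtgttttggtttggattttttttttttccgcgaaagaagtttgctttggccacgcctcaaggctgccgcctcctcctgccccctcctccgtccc
Nr1d2, chr15:9954784-9955033, plus strand: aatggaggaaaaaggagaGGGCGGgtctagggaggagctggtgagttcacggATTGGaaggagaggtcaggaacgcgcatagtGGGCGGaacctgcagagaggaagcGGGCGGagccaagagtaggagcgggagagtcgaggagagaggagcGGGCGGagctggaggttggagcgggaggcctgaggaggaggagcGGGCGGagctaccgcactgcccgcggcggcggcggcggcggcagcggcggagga
Scd2, chr1:253118127-253118376, plus strand: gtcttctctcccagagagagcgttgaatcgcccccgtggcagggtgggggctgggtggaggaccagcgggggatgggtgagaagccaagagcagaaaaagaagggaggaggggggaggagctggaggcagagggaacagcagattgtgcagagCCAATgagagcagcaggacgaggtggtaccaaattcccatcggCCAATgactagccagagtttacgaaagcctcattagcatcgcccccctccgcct
Idi1, chr17:66547525-66547774, minus strand: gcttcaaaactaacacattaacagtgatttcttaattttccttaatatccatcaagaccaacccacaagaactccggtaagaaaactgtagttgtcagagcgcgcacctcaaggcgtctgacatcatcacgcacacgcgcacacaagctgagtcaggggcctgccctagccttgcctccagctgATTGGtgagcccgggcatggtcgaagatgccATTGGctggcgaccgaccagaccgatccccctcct
Dbp, Scd2 and Idi1 each held 2 CCAAT boxes, and Nr1d2 held 1 CCAAT box and 5 GC boxes. Over the 11 windows, 7 held a CCAAT box and 5 a GC box, and those of Scd and Per3 held neither. Among all 27457 promoters of this length, 34.3% held a CCAAT box, 9.77% held at least 2, and 32.4% held a GC box. The E-box was found in 5.79% of all promoters, the D-box in 3.21%, the REV-ERB/ROR element in 0.637% and the sterol element in 0.976%, and none of them in the 11 windows. A match is a string of letters and not a shown binding site.

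**Figure D2:**
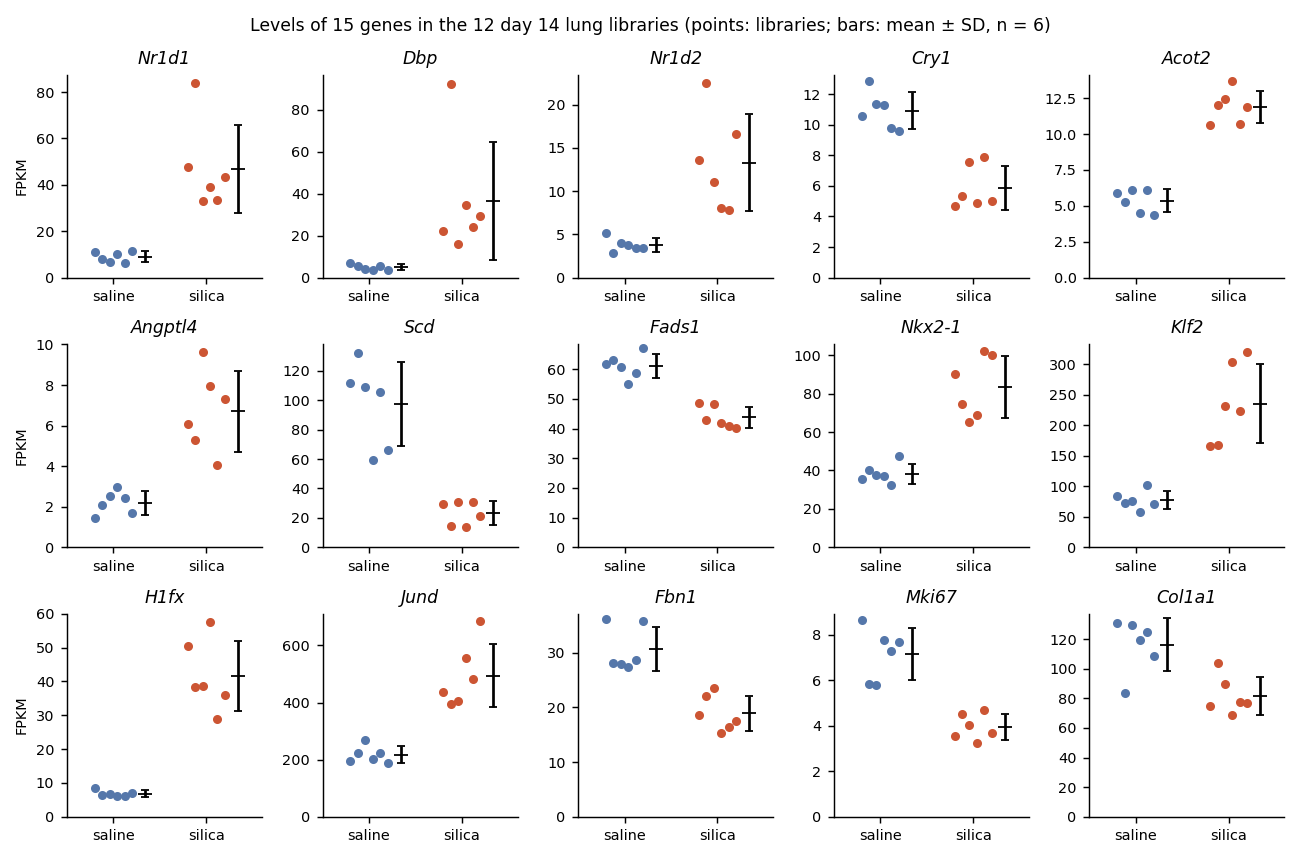
FPKM of 15 genes in each of the 12 day 14 libraries (points, in replicate order from left to right), with the mean and SD of each group (n = 6). Saline and silica do not overlap for 14 of them, and for Col1a1 they do.

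Some genes of fatty acid breakdown rose. The PPAR factors are nuclear receptors for fatty acids, and their targets carry fatty acids into mitochondria and peroxisomes and burn them. Of 23 such genes tested, 7 were called higher, beside 3.28% of all genes, and none lower, with a list median of 0.13. Acot2, a mitochondrial acyl-CoA thioesterase, was at 4.36, 5.57 and 6.12 FPKM in saline and at 10.6, 11.9 and 13.7 in silica (1.02 ± 0.10, adjusted p = 0.000118). Angptl4, a secreted inhibitor of lipoprotein lipase, was at 1.42, 2.28 and 2.95 in saline and at 4.04, 6.69 and 9.61 in silica (1.25 ± 0.18, adjusted p = 0.00184). In both, all silica libraries were above all saline libraries. Cpt1a, the gate enzyme for fatty acid entry into mitochondria, went from a median of 13.8 to one of 24.3 (0.73 ± 0.11, adjusted p = 0.00218). Ucp2, a mitochondrial carrier, rose by 0.39 ± 0.07. Acot3 (1.93 ± 0.29) and Acot1 (1.44 ± 0.26) rose from levels near 0, each being listed at 0 in its lowest saline library. Acot1, Acot2 and Acot3 are neighbouring copies of similar sequence, and their reads may be split between them. The receptors themselves did not pass: Ppara was at -0.38 ± 0.18 (adjusted p = 0.224) and Pparg at -0.17 ± 0.15 (adjusted p = 0.526). Leaving out any 1 library gave 6 or 7 called genes.

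Desaturases of fatty acids fell. Scd, the desaturase that makes monounsaturated fatty acids, was at 59.1, 107 and 132 FPKM in saline and at 13.8, 25.4 and 30.9 in silica. Every silica library was below every saline library, and the change of -2.03 ± 0.26 (adjusted p = 0.000759) was the largest fall among the called genes named here. Scd2, its more abundant copy in lung, was at 840, 1140 and 1255 in saline and at 398, 558 and 770 in silica (-0.89 ± 0.17, adjusted p = 0.00979). Fads1 and Fads2, which desaturate polyunsaturated fatty acids, changed by -0.47 ± 0.07 and -0.60 ± 0.11. Srebf1, the gene of the factor SREBP1 that drives this programme, went from a median of 23.1 (19.1 to 26.5) to one of 14.7 (12.6 to 17.6), a change of -0.58 ± 0.11 (adjusted p = 0.00972). Of 20 genes of fatty acid synthesis tested, these 5 were called lower and none higher, beside 2.48% lower among all genes. The list median was -0.30, and 5 or 6 were called without any 1 library. Fasn, the synthase, did not pass (-0.51 ± 0.15, adjusted p = 0.0656). In the sterol pathway 2 of 23 genes were called lower, Cyp51 (-0.51 ± 0.11) and Idi1 (-0.47 ± 0.11). The list median was -0.15. The Idi1 call was lost without saline replicates 1 to 4 or silica replicates 1 and 5, each taken singly (adjusted p up to 0.0664).

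Several genes with the smallest p among the rises were nuclear factors. Zfp771, a zinc finger protein, was at 2.08, 2.71 and 4.03 FPKM in saline and at 20.6, 22.4 and 34.4 in silica (2.75 ± 0.15, adjusted p = 1.25e-06). H1fx, a linker histone, was at 6.19, 6.57 and 8.57 in saline and at 29.0, 38.5 and 57.4 in silica (2.41 ± 0.14, adjusted p = 2.57e-06). For both, the lowest silica library was several times the highest saline library. Nr2f6, an orphan nuclear receptor, changed by 1.68 ± 0.12, Scx, the tendon factor scleraxis, by 1.45 ± 0.13 and Tbx2, a T-box factor of lung mesenchyme, by 0.85 ± 0.08. Scand1, a SCAN domain protein, went from 2.76, 4.68 and 9.04 in saline to 17.8, 65.5 and 100 in silica (3.26 ± 0.36), the largest rise among the called genes named here. Purb (2.37 ± 0.37), which binds purine-rich single strands, and Taf10 (2.11 ± 0.23), a subunit of the general factor TFIID, rose from medians of 2.92 and 2.41. Metrnl, a secreted factor, went from a median of 6.46 to one of 15.6, and Bloc1s3, of a complex that sorts cargo to lysosome-related organelles, from 2.84 to 12.3. Vmac, a coiled-coil protein of intermediate filaments, rose by 1.51 ± 0.14. Cebpb, a C/EBP factor of inflammation and epithelium, was at 0.752, 16.6 and 26.0 in saline and at 36.1, 78.5 and 258 in silica. Saline replicate 5 was far below the other saline libraries, and the change of 2.90 ± 0.67 ended its call when either saline replicate 4 or silica replicate 1 was dropped (adjusted p up to 0.0599).

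Lung epithelial transcription factors rose in part, by 4 of 18 tested genes, with none lower, beside 3.28% higher among all genes. The list median was 0.09. Nkx2-1, the master factor of lung epithelium, was at 32.1, 37.3 and 47.6 FPKM in saline and at 65.1, 82.2 and 102 in silica (1.09 ± 0.13, adjusted p = 0.000448). The groups were clearly separate. Irx3 went from a median of 4.41 to one of 17.9 (1.84 ± 0.30) and Foxa2, a forkhead factor, changed by 0.55 ± 0.09. Gata6 (0.65 ± 0.16) lost its call without any of 9 libraries taken singly (adjusted p up to 0.0792), all but saline replicate 6 and silica replicates 2 and 4. Their surfactant targets did not pass, Sftpb being at 0.33 ± 0.12 (adjusted p = 0.114). None of 15 type 2 cell markers was called.

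Of 15 tested genes picked from the SOX and KLF families 4 were called higher and none lower, beside 3.28% higher among all genes. Klf2, the flow-responsive factor of endothelium, was at 58.3, 74.5 and 103 FPKM in saline and at 167, 228 and 320 in silica (1.57 ± 0.18, adjusted p = 0.000377). Sox12 (1.19 ± 0.23), Klf11 (0.43 ± 0.09) and Sox18 (0.75 ± 0.17), the last a factor of vessels, also rose, and Sox18 ended its call when saline replicate 2, saline replicate 3 or silica replicate 1 was dropped (adjusted p up to 0.0544). Of 19 endothelial markers Sox18 alone was called. Cldn5, the claudin of endothelium, was listed at 0 in 4 saline libraries and 1 silica library. Among 23 immediate early genes 3 were higher and none lower, with a list median of -0.10. Jund, an AP-1 subunit, was at 188, 214 and 270 in saline and at 395, 460 and 686 in silica (1.16 ± 0.14), and Ier5 and Klf2 were the others. The acute members were not called, with Fos at -0.21 (adjusted p = 0.816) and Egr1 at -0.20 (adjusted p = 0.845).

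Of 15 histone genes 4 were higher, against 3.28% of all genes, and none lower. Beside H1fx the histone calls were Hist2h2aa3 (2.01 ± 0.25), Hist2h3c2 (0.67 ± 0.14) and H2afj (1.14 ± 0.28). Hist2h3c2 was at low levels, 0.0863 to 0.780 FPKM in saline and 1.00 to 1.82 in silica. Hist2h2aa3 has a near-identical copy with which its reads may be shared, and the H2afj call was lost without any of 8 libraries taken singly (adjusted p up to 0.0744). Rps2, of the small ribosomal subunit, was at 172, 197 and 267 FPKM in saline and at 519, 569 and 762 in silica (1.56 ± 0.12, adjusted p = 2.96e-05). It was the only one called of 28 cytosolic ribosomal protein genes, of which all 28 had a change above 0, with a list median of 0.33. Their summed level was 10518 to 12809 in saline and 12907 to 22945 in silica, silica replicate 4 being the highest. Without that library 3 were called, and 2 without silica replicate 2. The authors' table describes 10 tested IDs as ribosomal protein S2, 9 of which were above 0 and 2 called, so the division of reads among Rps2 and its copies is uncertain. Pdcd2, in human cells a chaperone of the Rps2 protein, went from a median of 9.62 to one of 17.9 (0.84 ± 0.08, adjusted p = 0.000118).

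Among signalling genes, 4 of 25 of the Wnt pathway were higher and none lower, beside 3.28% higher among all genes. Frat2, which frees beta-catenin by binding its kinase GSK3, was at 0.168, 0.265 and 3.08 FPKM in saline and at 6.10, 6.80 and 8.70 in silica (2.43 ± 0.27, adjusted p = 0.000321), and saline replicate 3 was the high one. The ligands Wnt7a (0.44 ± 0.09) and Wnt11 (0.35 ± 0.07) rose, as did the receptor Fzd2 (0.72 ± 0.18), whose call was lost without any of 9 libraries taken singly (adjusted p up to 0.0741). The BMP targets Id4 (0.63 ± 0.09) and Id3 (0.44 ± 0.10) rose, the latter losing its call without silica replicate 1 (adjusted p = 0.0525), while Acvr1, Bmp2 and Bmpr1b fell, each of these 3 losing its call without any of 9 or 10 libraries. Igfbp7, a matrix-bound binding protein of endothelium, was at 464, 493 and 499 in saline and at 705, 941 and 1057 in silica (0.86 ± 0.11, adjusted p = 0.000715). Igfbp5, another binding protein, fell from a median of 60.4 to one of 35.2 (-1.04 ± 0.21, adjusted p = 0.0138), with silica replicate 4 the lowest at 15.9.

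Some transcripts of dividing cells fell. Of 26 cell cycle genes, 8 were called lower, beside 2.48% of all genes, and none higher. Of the 26, 23 were below 0, with a list median of -0.29. Mki67, the proliferation marker Ki-67, was at 5.79, 7.49 and 8.67 FPKM in saline and at 3.25, 3.85 and 4.70 in silica (-0.72 ± 0.11, adjusted p = 0.00295). Ccnb1, the mitotic cyclin, was at 4.96, 5.38 and 6.72 in saline and at 2.64, 3.29 and 3.95 in silica (-0.63 ± 0.10, adjusted p = 0.00242). In both genes the 2 groups did not overlap. Pimreg (-1.12 ± 0.22), Ccna2 (-0.56 ± 0.10) and Top2a (-0.59 ± 0.11) also fell, and Cdk1, Cdc20 and Rrm2 were the other calls. Genes of the replicative helicase were not called, Mcm2 being at -0.09. The count was 5 when any of saline replicates 1, 3, 4 and 5 and silica replicates 1, 5 and 6 was dropped, and it was 1 in a fit of all 24 libraries and 2 with the replicate number as a block. Cdk1, Cdc20, Rrm2 and Mcm2 were picked after their values were seen, as were RF00002, Calm2, Cldn5, Ucp2, Fasn, Ppara, Pparg, Arntl, Tef, Per1, Fos and Egr1.

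Matrix genes were lower or did not pass. Of 19 collagen genes 2 were called lower, Col1a1 and Col15a1, and none higher, beside 2.48% lower among all genes. Of the 19, 16 were below 0, with a list median of -0.26. Col1a1, the main chain of type I collagen, was at 83.6, 122 and 131 FPKM in saline and at 68.5, 77.0 and 104 in silica. The groups overlapped, and the change of -0.50 ± 0.12 (adjusted p = 0.0355) lost its call without any of 9 libraries taken singly (adjusted p up to 0.0784). Those were saline replicates 1, 3, 4, 5 and 6 and silica replicates 1, 4, 5 and 6. Col15a1 (-0.57 ± 0.14) did so without any of 8, the list count running from 0 to 3, and neither was called with the length trend removed (Col1a1 adjusted p = 0.104, Col15a1 adjusted p = 0.0791). Of 23 other matrix genes 3 were lower and 20 were below 0. Fbn1, the microfibril protein fibrillin 1, was at 27.4, 28.4 and 36.1 in saline and at 15.3, 18.1 and 23.6 in silica, without overlap (-0.68 ± 0.11, adjusted p = 0.00508). Vcan, the proteoglycan versican (-0.75 ± 0.15), and Thbs2, thrombospondin 2 (-0.53 ± 0.09), fell too. With the length trend removed Vcan lost its call (-0.52, adjusted p = 0.0589), as it did with the replicate block (adjusted p = 0.0601), and Fbn1 was at -0.42. Loxl1, which cross-links elastin, fell by 0.49 ± 0.11 from a median of 112 to one of 78.4. Itga2, a collagen receptor subunit (-0.98 ± 0.21), Itgb8, which activates latent TGF-beta (-0.88 ± 0.13), and Adam12, a membrane protease (-0.91 ± 0.15), were lower in every silica library. Cemip2, which cuts hyaluronan at the cell surface, went from a median of 29.3 to one of 14.0 (-1.02 ± 0.11, adjusted p = 0.000344).

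The other leading falls were in genes of varied roles. Dach1, a nuclear factor, went from a median of 12.0 to one of 7.06 (-0.76 ± 0.08), and Mest, an imprinted growth gene, from 3.78 to 0.994 (-1.09 ± 0.15). Zswim5 (-0.69 ± 0.07), Map1b, a microtubule protein (-0.75 ± 0.10), Lmntd1 (-0.95 ± 0.14) and Dusp8, a phosphatase of stress kinases (-0.83 ± 0.12), fell without overlap. So did Oxct1, which lets cells burn ketone bodies (-0.50 ± 0.07), and Sec23b, of the coat of vesicles leaving the endoplasmic reticulum (-0.41 ± 0.06). St8sia2, a polysialic acid synthase (-1.11 ± 0.18), and Scn3b, a sodium channel subunit (-0.99 ± 0.15), were lower in all silica libraries. The fall of Slc28a3, a nucleoside transporter (-0.99 ± 0.24), lost its call without any of 6 libraries taken singly (adjusted p up to 0.0685). Cyp1a1, an enzyme of xenobiotic breakdown, went from a median of 15.1 to one of 8.34 without overlap, a change of -0.87 ± 0.15 (adjusted p = 0.00576).

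Chaperones were called in both directions, beside 3.28% higher and 2.48% lower among all genes. Of 17 heat shock genes tested 2 were above 0 and 15 below, with a list median of -0.24. Hspb1, the small heat shock protein HSP27, was at 98.4, 115 and 193 FPKM in saline and at 229, 259 and 355 in silica (1.13 ± 0.16, adjusted p = 0.00176). Hsp90aa1, the inducible HSP90, was at 147, 173 and 203 in saline and at 103, 120 and 137 in silica (-0.56 ± 0.09, adjusted p = 0.00318). Neither gene's groups overlapped. Chordc1 and Dnaja1 were also called lower of 17 genes, and their calls were lost without any of 7 and 8 libraries taken singly (adjusted p up to 0.0775). In the unfolded protein response, Trib3 rose by 0.55 ± 0.11, and 3 of 21 genes were lower, Pdia4, Hspa5 and Calr. Each of these 3 lost its call without any of 5 to 10 libraries, and all 3 did so when any of saline replicates 1, 4 and 6 and silica replicates 1 and 5 was dropped. The p53 targets Gdf15 (0.67 ± 0.14), Phlda3 (0.55 ± 0.12) and Gadd45b (0.52 ± 0.12) rose and Cdkn1a fell (-0.68 ± 0.18, adjusted p = 0.0496), with 10 libraries whose single removal ended the Cdkn1a call. Without saline replicate 3 or 4 only 1 of the 3 rises was called.

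**Figure D3:**
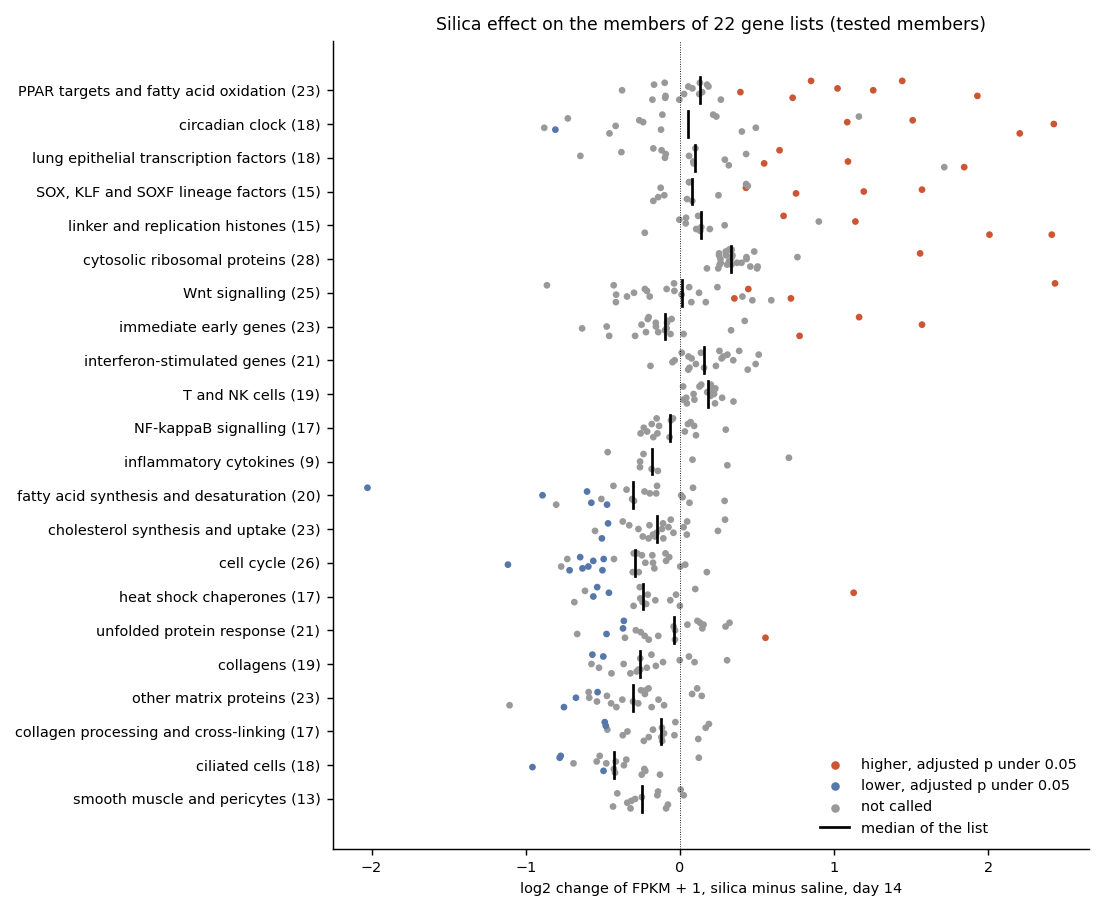
Silica effect (log2 change of FPKM + 1) of each tested member of 22 gene lists, one row a list with the number of tested members in brackets, members called higher in red and lower in blue, and the list median as a bar. Members of several lists reach above 1, among them PPAR, clock and histone members, Scd lies at -2.03, and all 28 ribosomal protein genes lie above 0.

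Genes of inflammation and scarring were mostly not called, as were most tested genes, of which 5.76% were called in either direction. Of 15 lung injury genes, 13 were expressed enough to test, Il6 and Tnf being the others, and 2 were called, both lower: Col1a1, given above, and Mmp12, the elastase of macrophages (-0.79 ± 0.20, adjusted p = 0.0355). Mmp12 was at 2.38, 2.92 and 6.80 FPKM in saline and at 1.03, 1.68 and 2.17 in silica, and 7 libraries ended its call when removed singly, saline replicates 1, 4 and 5 and silica replicates 1, 2, 4 and 6. Il1b was at 7.08, 14.2 and 19.9 in saline and at 10.3, 13.5 and 17.5 in silica (0.08 ± 0.22, adjusted p = 0.852). Nlrp3 was at 0.03 ± 0.13. Ccl2, a chemokine that draws monocytes, was at 2.79, 6.05 and 29.1 in saline and at 1.10, 3.01 and 3.92 in silica (-1.24 ± 0.41, adjusted p = 0.0931). Fn1, fibronectin (-0.59 ± 0.21, adjusted p = 0.117), Spp1, osteopontin (-0.59 ± 0.40, adjusted p = 0.388), Timp1, a protease inhibitor (-0.51 ± 0.28, adjusted p = 0.27), and Tgfb1 (0.25 ± 0.07, adjusted p = 0.054) did not pass. Acta2, the actin of smooth muscle and myofibroblasts, was at -0.09 ± 0.12 and Col3a1 at -0.28 ± 0.13. No member of the cytokine (9 tested), NF-kappaB (17), interferon (21), complement (18), MHC class II (11), NRF2 (18) or lysosome (23) lists was called in either direction. In the interferon list 18 genes were above 0 and 3 below, with a list median of 0.16. Of 18 chemokines Cxcl14 rose (0.85 ± 0.17, adjusted p = 0.0142) and Cxcl12 fell (-0.54 ± 0.13, adjusted p = 0.0296), the latter losing its call without any of 7 libraries. Txnip, which binds NLRP3, rose from a median of 529 to one of 700 (0.50 ± 0.10).

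Markers of lung cell types gave few calls. In 18 genes of ciliated cells 4 were lower, beside 2.48% of all genes, and 17 were below 0, with a list median of -0.43. Hydin, of the ciliary central apparatus, was at 3.71, 6.15 and 10.8 FPKM in saline and at 1.90, 2.63 and 3.84 in silica (-0.96 ± 0.21, adjusted p = 0.0195). Spag17, Dnah5 and Dnah9 were the other calls. The 4 are long genes, and none of them was called after the dependence on gene length was removed. The list median was then -0.38, and it was -0.26 with the mitochondrial covariate and -0.92 at day 28. The cause of these falls was not tested. In the list 1 was called lower when any of saline replicates 3 and 4 and silica replicates 1 and 6 was dropped, and 2 when saline replicate 6 or silica replicate 4 was. The summed level of the list was 537 to 806 in saline and 539 to 981 in silica. All 19 T and NK cell markers were above 0, with none called and a list median of 0.18. All 9 tested cardiac muscle genes were below 0 with none called, their summed level being highest in saline replicate 5. All 10 tested erythroid genes were below 0, with a list median of -0.29, and 2 were called lower, Tfrc, the transferrin receptor (-0.38 ± 0.09), and Slc4a1, the band 3 anion exchanger (-0.76 ± 0.20). Neither was called with the length trend removed or with the replicate block, and dropping any of 10 libraries singly ended the Slc4a1 call. Aqp5, the water channel of type 1 cells, rose from a median of 211 to one of 283 (0.39 ± 0.08, adjusted p = 0.0174). No marker of type 2 cells, airway secretory cells (9), fibroblasts (16), smooth muscle (13), neutrophils (12) or B cells (14) was called.

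Calls followed gene length. The median recovered length was 1673 bases for the higher calls, 3795 for the lower calls and 2162 for all tested genes. With genes in 10 bins of equal size by length, 2.76% were called higher and 0.796% lower in the shortest bin, and 0.425% and 7.28% in the longest. The median change was 0.07 in the shortest bin and -0.20 in the longest. A measure per library, the median log2 deviation of the longest 20% of genes minus that of the shortest 20%, was 0.13 ± 0.09 in saline and -0.12 ± 0.21 in silica (mean ± SD, n = 6; two-sided exact permutation p = 0.0108) and was chosen after the data were seen. Silica replicate 4 lay at -0.52, and the other silica libraries at -0.13 to 0.07. With the length trend of each library removed, 687 genes were higher and 354 lower, which held 553 of the 616 and 290 of the 467 calls. The longest bin then had 2.71% higher and 2.13% lower. The part of gene length in these calls was not tested further.

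**Figure D4:**
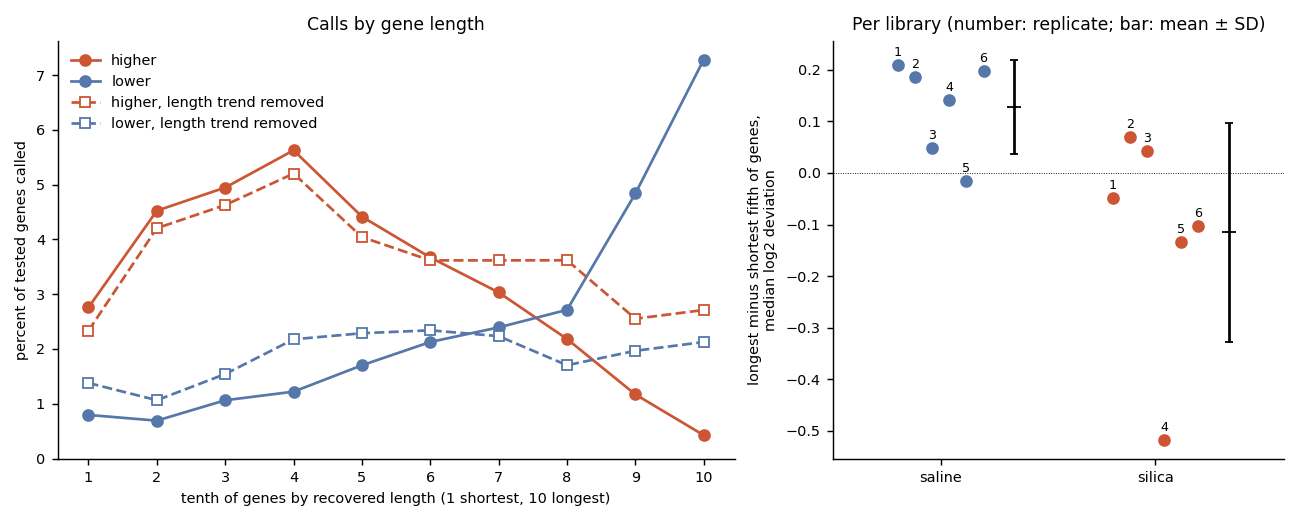
Left, the percent of tested genes called higher (red) or lower (blue) in each of 10 bins of recovered gene length, before (filled) and after (open) the length trend was removed. Right, the longest 20% minus the shortest 20% of genes in each library as a median log2 deviation, with group mean and SD (n = 6), where silica replicate 4 lies lowest at -0.52.

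The rises and the falls were also looked up at day 28, which shares no library with day 14. Of the 616 higher genes, 390 (63.3%) were above 0 at day 28, against 48% of all tested genes, and 86 were called higher there, where 1.84% of all genes were. Of the 467 lower genes, 205 (43.9%) were below 0, against 52% of all genes, and 7 were called lower, where 1.58% of all genes were. The lower calls were mostly long genes, and the comparison with all genes was not matched for length. The median change at day 28 was -0.096 in the shortest length bin and 0.094 in the longest. At day 28, 3 saline libraries (replicates 1, 2 and 6) had over 5% of reads on mitochondrial genes, and without them 432 (70.1%) and 253 (54.2%) had the same sign, against 48.2% and 51.8% of all genes. Called genes were then 18, where 0.133% of all genes were, and 2, where 0.0266% were. With all day 28 libraries, Zfp771, H1fx, Nr2f6, Scx, Acot2, Acot3, Pdcd2, Vmac, Frat2, Taf10, Bloc1s3, Angptl4, Cpt1a, Sox12, Fzd2, Phlda3 and Irx3 were called higher at both days. Of these 17 named genes 4 were called without the 3 libraries, Zfp771, H1fx, Nr2f6 and Vmac. Fbn1, lower at day 14, was called higher at day 28 (0.48, adjusted p = 0.0487), a call lost without the 3 libraries (0.39, adjusted p = 0.371). H1fx changed by 1.15 at day 28 (adjusted p = 0.000199) and Angptl4 by 1.38 (adjusted p = 0.0203). Dbp was at 0.11 at day 28 (adjusted p = 0.796), Scd at -0.91 (adjusted p = 0.114) and Mki67 at 0.23 (adjusted p = 0.62). The difference between the days passed in a fit of all 24 libraries for 239 of the higher and 191 of the lower calls, beside 11.5% of all genes, and for 7 and 3 without those 3 libraries, beside 0.0691%. Both fits share the day 14 libraries with the calls, which were chosen on that contrast.

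**Figure D5:**
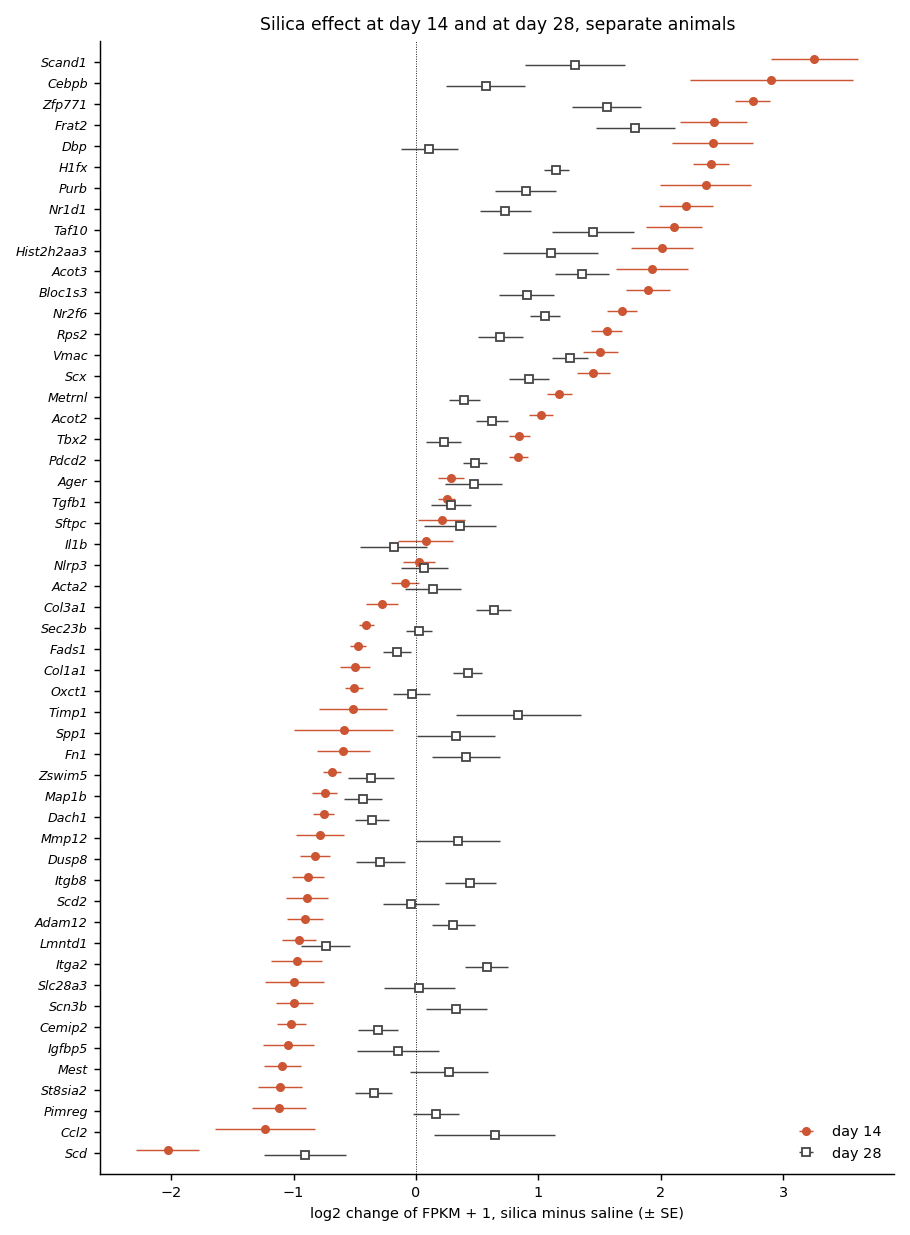
Silica effect (log2 change of FPKM + 1 ± SE) at day 14 (filled) and at day 28 (open) for 53 genes named for their day 14 change or as lung injury genes. Dbp goes from 2.42 at day 14 to 0.11 at day 28, and Itga2 (0.58) and Col1a1 (0.42) lie above 0 at day 28.

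In the authors' deposited table, 1218 genes were higher and 1072 lower at an FDR under 0.05 in this comparison, by a test that the sources used here do not name. These held 604 of the 616 higher and 460 of the 467 lower calls made here.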

How the data were processed

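Poly-A selected RNA of rat lung was sequenced in 24 libraries, of which the 12 of day 14 were compared. The authors' deposited FPKM values were used, and the submitters' processing notes name the aligner HISAT2 2.1.0, the counter HTSeq 0.9.1, the trimmer cutadapt 4.0, FastQC 0.11.9 and the builds Rnor_6.0 and rn6, without settings. The authors' deposited table also holds a log2 fold change, the linear ratio (fold change) and p-values with FDR for this comparison, made by a test not given in the sources used here. Only its FDR calls and gene descriptions were used. Whole reads and gene lengths were recovered from the FPKM steps and gave each library's depth. Of the values above 0 in all 24 libraries, 99.99% lay within 0.02 read of a whole number.

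Genes with at least 0.5 FPKM in at least 6 of the 12 libraries were tested on log2(FPKM + 1) with limma 3.58.1 (trend) in R 4.3.3, two-sided, with Benjamini-Hochberg adjustment over all 18809 genes, and called at an adjusted p under 0.05. The day 28 fit and the fit of the difference between days used the same genes. Values of single libraries were compared by two-sided exact permutation. Python 3.11.15 with scipy 1.17.1 was used. The fit was tested on simulated data. Members and lists were chosen with earlier results of these data known. Genes were named by smallest p, then by largest change, then by gene list, with the lung injury genes added. The alternatives were another pseudocount, no filter, all 24 libraries, a replicate block, another scaling, recovered reads (voom), a stricter threshold, removal of the length trend, a mitochondrial covariate, library weights and each library left out. The p-values set a difference between groups against the spread between libraries within the groups. The values of 1 called PPAR target are not reported here.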

Additional observations from a re-analysis of the deposited data

Results flagged for a closer look

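Single libraries far from the rest of their group were found in 11 of 114 groups of 6 checked, where chance flags about 5%. Silica replicate 4 was the highest for Metrnl (22.4 FPKM), Pdcd2 (22.3), Bloc1s3 (20.4) and Acta2 (245), and the lowest for Igfbp5 (15.9) and for the longest minus shortest genes (-0.517 on the log2 scale). Saline replicate 5 was the lowest for Cebpb (0.752 FPKM) and the highest for Dach1 (14.7) and for the mitochondrial share of reads (3.92%). Saline replicate 3 was the highest for Pdcd2 (11.7) and Frat2 (3.08).

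By the test of the difference in a fit of all 24 libraries, the silica effect differed between the days for 22 of 53 genes. The share over all tested genes was 11.5%. Most of the 53 were named for their day 14 change, and the test reuses those day 14 libraries, so they were not chosen independently of it. The effect at day 14 minus that at day 28 (log2) was above 0 for Zfp771 (1.19), H1fx (1.26), Nr2f6 (0.62), Rps2 (0.87), Metrnl (0.77), Bloc1s3 (0.99), Tbx2 (0.62), Nr1d1 (1.47), Scand1 (1.96), Dbp (2.32) and Purb (1.47). It was below 0 for Cemip2 (-0.70), Mest (-1.36), Itgb8 (-1.33), Sec23b (-0.43), Pimreg (-1.28), St8sia2 (-0.77), Scn3b (-1.32), Itga2 (-1.55), Adam12 (-1.21), Col1a1 (-0.92) and Col3a1 (-0.92). Without the 3 saline day 28 libraries of high mitochondrial share, 2 of the 53 passed, H1fx and Metrnl, beside 0.0691% of all genes. All 22 differences had the same sign there. Dbp was then at 2.24, Scand1 at 2.00, Nr1d1 at 1.49 and Zfp771 at 1.23.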

How the results depend on the processing

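None of 113 called named genes changed sign under the alternatives run. Called genes picked after their values were seen were not among the 113. The medians of 7 of 60 gene lists changed sign with the length trend removed or the mitochondrial covariate, among them NF-kappaB, Wnt and inflammasome. The share of lower calls below 0 at day 28 went from under that of all genes (43.9% against 52%) to above it (54.2% against 51.8%) without the 3 saline day 28 libraries of high mitochondrial share. Calls numbered 616 higher and 467 lower, 248 and 72 at an adjusted p under 0.01, and 915 and 804 with library weights. Leaving out 1 library gave 368 to 714 higher and 174 to 558 lower. With the replicate number as a block, 287 were higher and 129 lower. Same-numbered libraries did not deviate together (mean correlation 0.0283, 0 of 6 best with their own number), so the numbers are not taken as pairs. The difference between days passed for 430 calls and for 10 without those 3 libraries. The mitochondrial difference was -0.317 percentage points by reads (-0.401 to -0.0464 without 1 library) and -0.938 by FPKM (exact permutation p = 0.00433). Of 113 called named genes, 26 missed the threshold in the fit of all 24 libraries, 41 with the block, 20 with no filter, 14 with length removed, 10 with the mitochondrial covariate, and 7 to 30 without 1 library. The cause was not tested.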
